A study of Mus musculus with 8 samples.

Results

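The collagen genes are the 44 mouse genes whose symbol has the form Col, a type number, a and a chain number, out of 49315 genes in the count tables. They were read in whole hearts at embryonic day (E) 9.5 from 4 wild-type (WT) libraries and 4 libraries homozygous for Tbx20EH1Mut, each made from 3 pooled hearts. Tbx20EH1Mut is a germline change, made by CRISPR/Cas9 editing, that replaces 2 amino acids in the EH1 domain of Tbx20, the stretch through which this cardiac T-box transcription factor binds TLE co-repressors. The comparison asks which collagen transcripts differ when this domain is altered. The change is present in every cell of the embryo and not in the heart alone, and the labels give no sex for the pooled embryos. In pooled whole hearts, fewer cells of a type and less RNA per cell cannot be told apart.

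Collagens are trimers of chains that wind into a triple helix, and each type needs its own set of chains, so levels of partner chains can be read against each other. Fibrillar collagens form the tensile fibrils of the matrix, FACIT collagens sit on the surface of those fibrils, type IV collagens build the sheet of every basement membrane, and multiplexins link basement membranes to the matrix around them. In the normal heart at this stage the matrix lies mainly between myocardium and endocardium, where it fills the forming cushions, and in the basement membranes of both layers. The paper reports that E9.5 mutant hearts were unlooped tubes with fewer cardiomyocytes, in which neither chambers nor cushions could be identified. The part of this difference in form in the transcript levels was not tested.

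Of the 44 collagen genes, 36 passed the filter on low counts and were tested, among 17163 genes tested in all. The remaining 8, Col4a3, Col5a3, Col6a4, Col6a5, Col6a6, Col10a1, Col19a1 and Col28a1, held between 5 and 82 counts over all 8 libraries and were not tested. At an adjusted p of at most 0.05, 7 collagen genes were higher in Tbx20EH1Mut and 7 were lower, beside 14.0% higher and 15.3% lower of all genes tested, or 29.3% in both directions. With a log2 fold change of at least 1 in size as well, 4 were higher and 3 lower, beside 6.67% and 4.16% of all genes and 10.8% in both directions. The median log2 fold change over the 36 was 0.10, and 0.0048 over all genes tested. Levels below are counts per 1000000 counts of the library (CPM), scaled by the trimmed mean of M values (TMM). The 14 called genes were also the 14 whose values in the 2 genotypes did not overlap, 7 in each direction, beside 14.7% of all genes higher and 15.7% lower, or 30.5% in both. Higher were Col9a2, Col14a1, Col15a1, Col8a1, Col11a1, Col26a1 and Col23a1. Lower were Col2a1, Col13a1, Col6a3, Col22a1, Col3a1, Col4a6 and Col4a5.

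**Figure D1:**
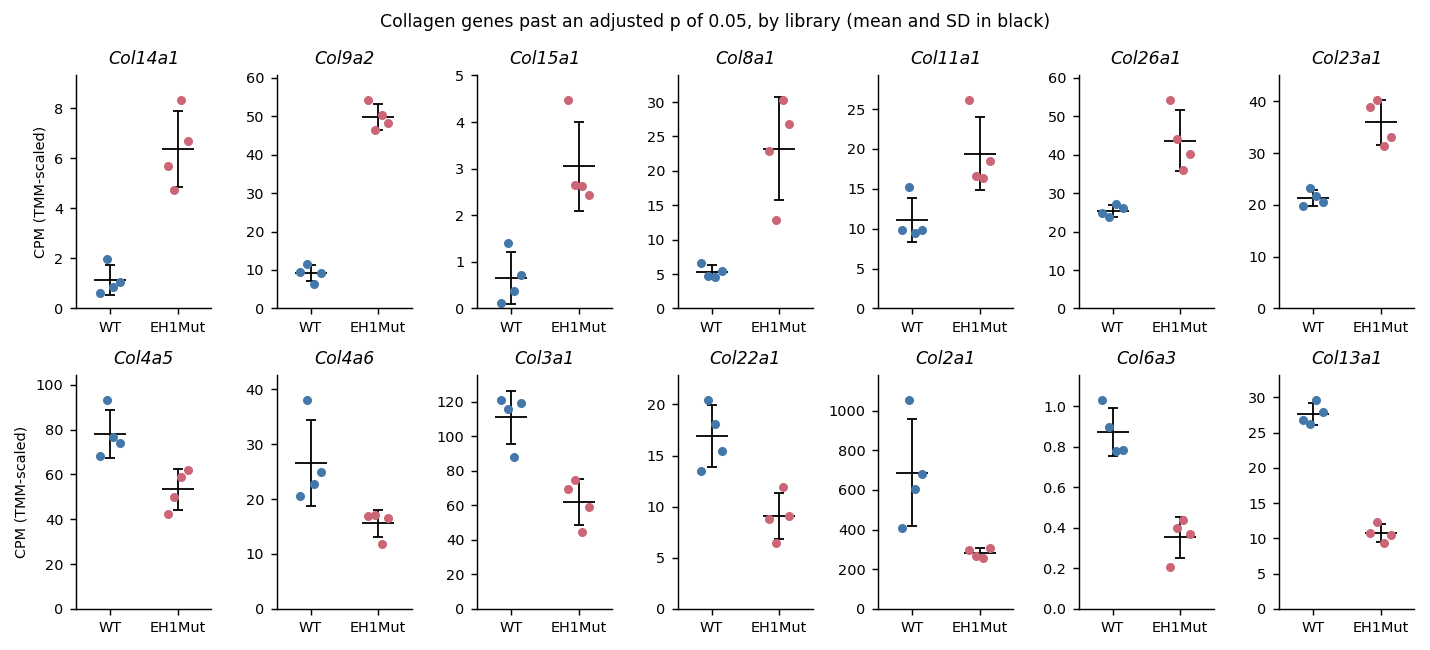
Level of the 14 called collagen genes in each library, in counts per 1000000 (CPM) on a linear axis from 0, with WT in blue, Tbx20EH1Mut in red and the mean and SD of 4 libraries in black. In each of the 14 panels the genotypes do not overlap, from Col14a1 at the top left to Col13a1 at the bottom right.

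Sequences just upstream of 3 of these genes are shown because Col9a2 and Col13a1 had the lowest adjusted p in each direction and Col8a1 rose without its partner chain. They come from RefSeq (GRCm38.p6) and run 5′ to 3′ on the strand of the gene up to the base before its start. Capitals mark GGGCGG (the letters of a GC box) and TATAAA (the letters of a TATA box), on either strand. The Col9a2 piece is shorter because the gene model of the count tables starts further upstream.
Col9a2, chr4:121039316-121039384, plus strand: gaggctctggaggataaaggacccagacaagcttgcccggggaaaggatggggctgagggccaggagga
Col8a1, chr16:57754738-57754987, minus strand: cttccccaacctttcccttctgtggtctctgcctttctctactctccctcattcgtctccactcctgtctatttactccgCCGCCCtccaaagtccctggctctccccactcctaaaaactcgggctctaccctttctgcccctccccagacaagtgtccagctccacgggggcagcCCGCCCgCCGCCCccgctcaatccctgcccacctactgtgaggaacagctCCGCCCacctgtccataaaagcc
Col13a1, chr10:61979109-61979358, minus strand: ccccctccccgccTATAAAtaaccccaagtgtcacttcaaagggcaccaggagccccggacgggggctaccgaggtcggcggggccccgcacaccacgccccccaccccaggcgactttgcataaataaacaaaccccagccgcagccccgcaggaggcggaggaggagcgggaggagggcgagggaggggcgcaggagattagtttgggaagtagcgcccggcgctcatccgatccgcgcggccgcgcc

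The Col8a1 piece held 4 copies of GGGCGG. The Col13a1 piece held 1 copy of TATAAA, near the end that lies far from the start of the gene. The Col9a2 piece, of 69 bases, held neither, while the RefSeq window of 300 bases that it begins holds GGGCGG. RefSeq windows of 300 bases (250 before to 50 after a gene's start) were found for 35 of the 44 collagen genes, 38 windows in all. The called genes Col2a1, Col14a1, Col22a1 and Col26a1 had no window, nor had Col1a1, Col4a3, Col5a2, Col9a3 and Col12a1. The promoters of these genes were therefore not searched for any motif. GGGCGG lay in 60.5% of the collagen windows and in 35.7% of all 32851 windows, and the collagen windows had a median GC content of 59.8% beside 52.7% for all. TATAAA lay in 13.2% of the collagen windows (13.6% of all), CCAAT in 34.2% (37.4%) and ACAATG, a SOX-type motif, in 2.63% (12.6%). Of T-box type motifs, AGGTGTGA was in no collagen window (1.28% of all), and TCACACC, which overlaps it on the other strand, was in 2.63% (3.98% of all), in Col11a2 alone. A match on either strand is a description of these letters only.

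The libraries held between 33359322 and 49523086 counts, and collagen genes took 0.172% to 0.382% of them in WT and 0.129% to 0.207% in Tbx20EH1Mut. WT replicate 2 stood apart with the highest collagen share of all. Tbx20 itself was at 353, 366, 380 and 372 CPM in WT and 215, 247, 289 and 317 CPM in Tbx20EH1Mut (log2 fold change -0.46 ± 0.13 SE, edgeR adjusted p = 0.0273). The call did not hold (adjusted p up to 0.0726) when WT replicate 3 or 4 or Tbx20EH1Mut replicate 1 or 2 was removed. It was also lost in 3 of 11 alternative fits with all libraries (adjusted p up to 0.183). Since the allele alters amino acids, a transcript level does not check the genotype labels. Counts of called markers here and in later paragraphs are to be read against the 29.3% of all tested genes that were called. Of 12 cardiomyocyte markers 1 was higher and 2 lower, with a summed level of 35140 to 39883 CPM in WT and 31876 to 45086 CPM in Tbx20EH1Mut. Of 10 endothelial and endocardial markers 3 were higher and none was lower by edgeR (1 at an unadjusted p under 0.05, none by DESeq2 or limma-voom), at 812 to 1012 CPM and 1003 to 1094 CPM in sum. The summed markers of foregut and of erythroid cells did not overlap between genotypes. Nor did those of somite and cartilage cells and those of fibroblasts and mesenchyme, whose values are given in later paragraphs. Foregut epithelium markers summed to 272 to 387 CPM in WT and 947 to 1204 CPM in the mutant, with 5 of 12 higher and none lower (none either at an unadjusted p under 0.05 by edgeR, DESeq2 or limma-voom), and all 8 erythroid markers were lower (1858 to 4946 against 352 to 1099 CPM). Sums for the next lists overlapped between genotypes. Of 8 neural crest markers tested 3 were higher, at 116 to 141 CPM in WT and 131 to 264 CPM in the mutant in sum, and of 7 epicardium and proepicardium markers tested 2 were higher (62.9 to 183 against 131 to 172 CPM). Of 10 tested markers of visceral and hepatic endoderm 2 were higher, and Tbx20EH1Mut replicate 2 stood apart at 205 CPM in sum, beside 12.7 to 49.5 CPM in the other mutant libraries and 9.94 to 23.9 CPM in WT. Of 7 neural tube markers tested 2 were higher and 1 lower. The mean log2 level of the foregut markers was 0.29, 3.51, -0.38 and 1.54 in WT and 5.18, 4.88, 2.94 and 4.23 in Tbx20EH1Mut. The genotypes overlapped only because WT replicate 2 was above Tbx20EH1Mut replicate 3. This level therefore largely follows genotype, and a fit can hardly separate the 2. With that level as a term in the fit, an alternative chosen after seeing the data, 5 collagen genes were called higher and 12 lower. Over all 17163 genes tested, that fit called 6456, beside 5024 without the term. Col11a1 (log2 fold change 0.26, from 0.81 without the term), Col15a1 (0.93, from 2.19) and Col6a3 (-1.13, from -1.30) then lost their calls, and Col18a1, Col4a1, Col4a2, Col5a1, Col6a1 and Col6a2 were called lower.

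Per kilobase of exon, which allows levels of different genes to be compared, the heart at E9.5 was dominated by a few collagens. In WT the order was Col2a1 at 114, Col18a1 at 58.9, Col4a1 at 56.0, Col4a2 at 39.3 and Col5a1 at 19.3 CPM per kb. The same genes held the first 5 places in Tbx20EH1Mut, at 46.8, 40.1, 38.8, 24.9 and 17.0 CPM per kb. Next to these, the chains of type I collagen were minor, at 4.46 (Col1a1) and 3.58 (Col1a2) CPM per kb in WT. The sixth place passed from Col4a5 in WT (11.6 CPM per kb) to Col9a2 in Tbx20EH1Mut, where it stood at 16.1 CPM per kb after 2.96, the fifteenth place, in WT.

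Summed over all 44 genes, the level was 247, 523, 320 and 351 CPM per kb in WT and 287, 254, 209 and 255 CPM per kb in the mutant. These ranges overlapped, because WT replicate 1 was below 3 of the mutant libraries, and the highest value was that of WT replicate 2. Without WT replicate 2 the log2 ratio of the genotype means moved from -0.52 to -0.28. The shares of single genes in the sum were compared next. Col2a1 made up 27.7% to 33.6% of it in WT and 17.3% to 20.2% in the mutant, Col9a2 0.650% to 1.24% and 5.92% to 7.76%, and Col4a1 15% to 16.1% and 14.7% to 16.1%. The Col2a1 and Col9a2 shares did not overlap between genotypes, while the Col4a1 shares were nearly the same. Shares of 1 sum depend on each other, and the Col5a1 share did not overlap either (4.85% to 5.82% and 5.97% to 7.66%), although Col5a1 was not called by its level. The differences between genotypes in the fibrillar and FACIT sums rested on single genes. Without Col2a1 the fibrillar sum overlapped between genotypes, at 37.3 to 59.8 CPM per kb in WT and 38.2 to 45.2 CPM per kb in the mutant, and without Col9a2 so did the FACIT sum, at 6.20 to 8.54 and 7.02 to 8.93 CPM per kb.

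**Figure D2:**
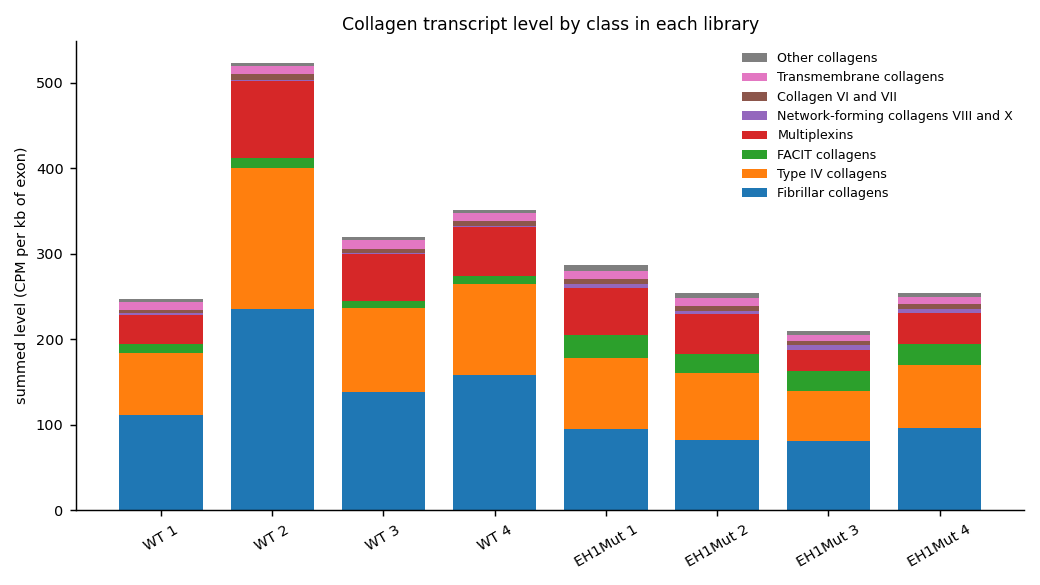
Summed level of each collagen class in each library, in CPM per kb of exon, stacked from 0. WT replicate 2 has the tallest bar at 523 CPM per kb, the fibrillar part is smaller in all 4 Tbx20EH1Mut libraries (80.5 to 96.2) than in WT (111 to 236), and the FACIT part is larger (22.1 to 26.3 against 8.28 to 12.3), differences that rest on Col2a1 and Col9a2.

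Among fibrillar collagens, 2 of 10 tested genes were lower, 1 was higher and 7 were not called, with a median log2 fold change of 0.10. Here and in the other classes, of 1 to 8 tested genes each, the called genes stand beside 29.3% of all genes, and nothing is read from a class count alone. Col2a1 (chr15:97975602-98004695), the main collagen of cartilage and also made in the embryonic heart, was at 409, 1055, 604 and 678 CPM in WT and 298, 265, 254 and 306 CPM in Tbx20EH1Mut. The lowest WT library was still above the highest mutant one, and the WT values spread far more (SD 271) than the mutant values (SD 25.1). The fall was 2.45-fold (log2 fold change -1.29 ± 0.24 SE, edgeR quasi-likelihood test with Benjamini-Hochberg adjustment, adjusted p = 0.00453), and without WT replicate 2 it was -0.99 on the log2 scale (adjusted p = 0.00393). Col2a1 is also made by notochord, somite and cartilage cells, and counts of their called markers stand beside 29.3% of all genes tested. Of 5 notochord markers tested of 8, 1 was higher and 1 lower, their sum was 57.4 to 137 CPM in WT and 98.6 to 119 CPM in the mutant, and Noto and Foxj1 stayed below 0.5 CPM in every library. Of 7 somite and cartilage markers tested of 12, 2 were higher and 1 lower (median log2 fold change 1.24), and Pax3, Matn1, Uncx and Meox2 stayed below 0.5 CPM. The summed somite and cartilage level, 358 to 422 CPM in WT and 212 to 261 CPM in the mutant, came mostly from Hapln1, a link protein of hyaluronan matrices, which was lower in the mutant, against the sign of that median, with a mean of 168 CPM beside 349 in WT. The part of such cells in the Col2a1 difference was not tested.

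Col3a1, the fibrillar collagen of compliant tissues, was at 121, 116, 88.2 and 119 CPM in WT and 69.5, 74.8, 44.8 and 59.2 CPM in the mutant. It was 1.79-fold lower (log2 fold change -0.84 ± 0.17 SE, edgeR adjusted p = 0.00628) and kept its call whichever of the 8 libraries was removed. Col11a1, which nucleates thin fibrils together with type II collagen, went the other way, with 9.80, 15.2, 9.52 and 9.78 CPM in WT and 26.2, 16.6, 16.4 and 18.5 CPM in Tbx20EH1Mut. The gap between WT replicate 2 and the lowest mutant libraries was narrow, and the call (log2 fold change 0.81 ± 0.21 SE, adjusted p = 0.0175) was lost without WT replicate 3 or WT replicate 4 (adjusted p up to 0.0605).

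The other abundant fibrillar chains did not pass the test. Col5a1, which sets fibril diameter, was at 113, 258, 141 and 144 CPM in WT and 154, 129, 136 and 157 CPM in the mutant (log2 fold change -0.19, adjusted p = 0.555). The mutant values lay inside the WT range, and without WT replicate 2 the sign turned (0.13). Its partner Col5a2 was at 50.2, 53.0, 49.8 and 56.2 CPM in WT and 57.1, 49.2, 67.0 and 60.0 CPM in Tbx20EH1Mut (log2 fold change 0.16, adjusted p = 0.315). Col1a2, a chain of type I collagen, was at 56.7, 48.0, 30.3 and 43.1 CPM in WT and 58.8, 40.7, 65.6 and 67.4 CPM in the mutant (0.38, adjusted p = 0.182). The genotypes overlapped for both genes. Col1a1 was at 13.7 to 37.6 and 18.6 to 38.1 CPM (0.05, adjusted p = 0.907). Col11a2, Col24a1 and Col27a1 had log2 fold changes between 0.08 and 0.46.

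**Figure D3:**
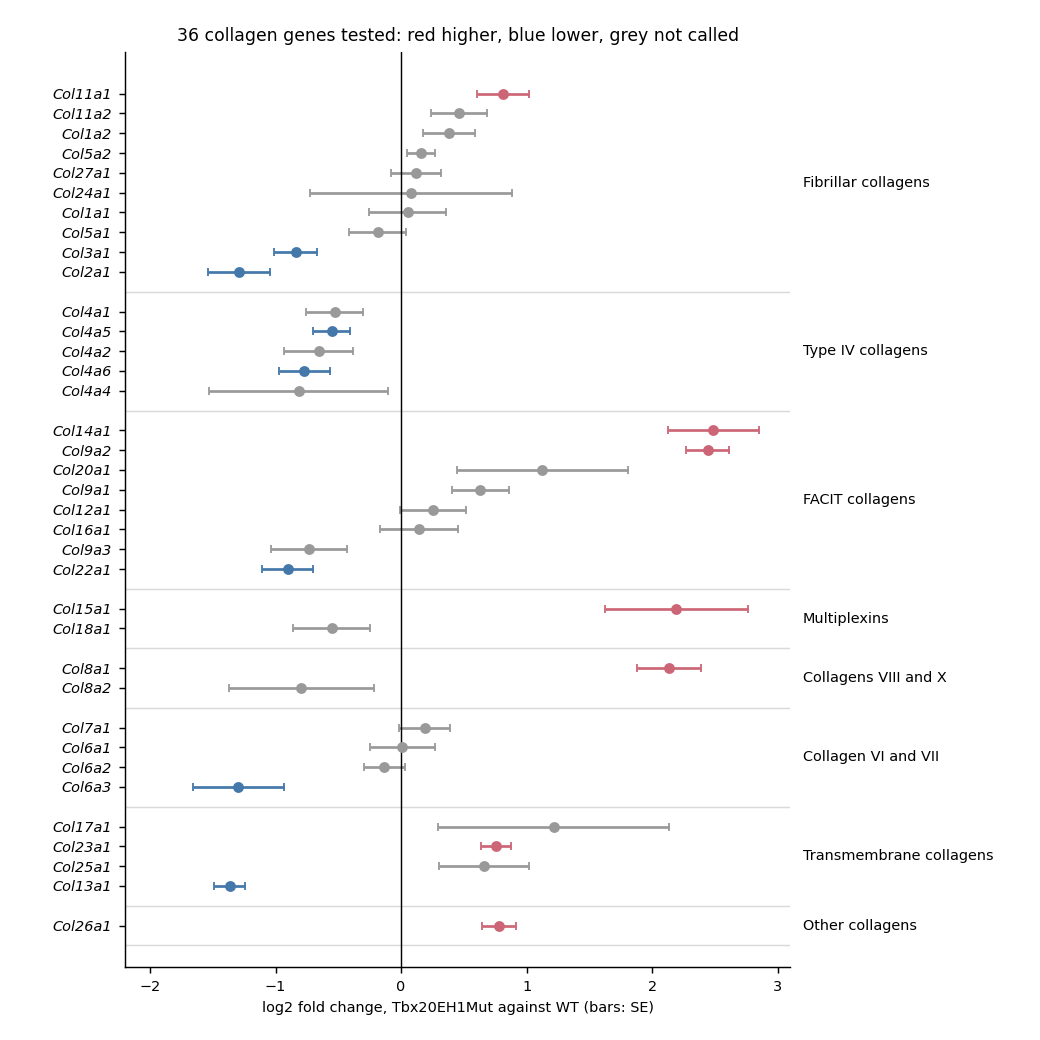
Log2 fold change with its SE for the 36 tested collagen genes, grouped by class, with called genes in red (higher) or blue (lower) and the others in grey. Values run from -1.37 (Col13a1) to 2.48 (Col14a1), and each of the 5 tested type IV chains lies below 0.

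All 5 tested type IV collagens had log2 fold changes below 0, between -0.82 and -0.53, and 2 of them passed the test. Col4a5 was at 68.3, 93.3, 76.7 and 73.9 CPM in WT and 42.2, 49.9, 59.0 and 62.1 CPM in the mutant (log2 fold change -0.55 ± 0.15 SE, edgeR adjusted p = 0.0207). Col4a6, which starts 1342 bases away from Col4a5 on the other strand of chromosome X, was at 20.6, 38.1, 22.8 and 24.9 CPM against 16.8, 17.1, 11.9 and 16.6 CPM (-0.77 ± 0.20 SE, adjusted p = 0.0199). Both genes were lower in every mutant library than in any WT library, and the Col4a5 call was lost (adjusted p up to 0.0506) without Tbx20EH1Mut replicate 1 or 2.

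Col4a1 and Col4a2, the chains of the common basement membrane network, were more abundant but did not pass. Col4a1 was at 275, 627, 372 and 398 CPM in WT and 330, 306, 230 and 292 CPM in Tbx20EH1Mut (log2 fold change -0.53 ± 0.23 SE, edgeR adjusted p = 0.103). Col4a2 was at 152, 409, 224 and 255 CPM and at 203, 181, 119 and 157 CPM (-0.66 ± 0.28 SE, adjusted p = 0.0955). In both genes WT replicate 1 lay within the mutant range. The calls turned on single libraries, since both genes passed without WT replicate 1 (adjusted p = 0.0237 and 0.0199), and without WT replicate 2 the log2 fold changes were -0.25 and -0.34. Col4a4 stayed below 0.6 CPM in every library.

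The FACIT collagens held the largest rises, with 2 of 8 tested genes higher, 1 lower and 5 not called, and a median log2 fold change of 0.44. Col9a2 (chr4:121039385-121055322), a chain of type IX collagen, was at 9.47, 11.6, 6.43 and 9.14 CPM in WT and 54.3, 46.5, 50.3 and 48.1 CPM in the mutant. The lowest mutant library was at 46.5 CPM and the highest WT library at 11.6 CPM, with an SD of 2.12 in WT and 3.37 in Tbx20EH1Mut. The rise was 5.44-fold (log2 fold change 2.44 ± 0.17 SE, edgeR adjusted p = 2.77e-05), the lowest adjusted p of any collagen gene, and lay between 2.30 and 2.59 on the log2 scale when any 1 library was left out. The other chains of type IX did not pass in the same fit. Col9a1 was at 8.77, 8.51, 5.92 and 8.01 CPM against 17.0, 11.3, 8.03 and 11.9 CPM (0.63 ± 0.23 SE, adjusted p = 0.0625), so that 1 mutant library lay inside the WT range. It was called higher without that library, Tbx20EH1Mut replicate 3 (0.79, adjusted p = 0.0209), and also by DESeq2 (adjusted p = 0.0407), with upper-quartile scaling, with the gene length offset and with the replicate block. Col9a3 was at 7.07, 3.61, 3.86 and 4.80 CPM against 2.93, 2.97, 1.75 and 3.95 CPM (-0.73 ± 0.30 SE, adjusted p = 0.0897). Of the exon bases of Col9a3, 6.07% overlap Tcfl5 on the opposite strand, and the strand setting of the counting is not given in the sources used here.

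Col14a1, a FACIT collagen of type I fibrils, rose from 0.607, 1.98, 0.857 and 1.07 CPM in WT to 5.70, 4.75, 8.35 and 6.68 CPM in the mutant, a 5.60-fold difference (log2 fold change 2.48 ± 0.36 SE, edgeR adjusted p = 0.00134). Its level stayed low next to Col9a2, at 0.908 against 16.1 CPM per kb in Tbx20EH1Mut. Summed markers of fibroblasts and mesenchyme were at 106 to 162 CPM in WT and 163 to 230 CPM in the mutant. Of these 10 markers 2 were higher and 2 lower, beside 29.3% of all genes called in both directions. The part of such cells in the rise of Col14a1 was not tested. Col22a1, a FACIT collagen of tissue junctions such as those of muscle and tendon, fell from 13.5, 20.4, 18.1 and 15.5 CPM to 8.81, 6.43, 11.9 and 9.09 CPM (-0.90 ± 0.20 SE, adjusted p = 0.0100). Col12a1 was at 20.1 to 43.9 CPM in WT and 26.1 to 43.1 CPM in the mutant and was not called (0.25, adjusted p = 0.487). Without WT replicate 2, its highest WT library, it passed (0.60, adjusted p = 0.0399). Col16a1 was not called either, nor was Col20a1, which stayed below 2 CPM (2.18-fold higher, SE 0.68 on the log2 scale, adjusted p = 0.231). Without Tbx20EH1Mut replicate 3, its lowest library, Col20a1 passed (1.52, adjusted p = 0.0202).

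Of the 2 multiplexins, 1 was called. Col15a1 was at 0.121, 1.41, 0.378 and 0.720 CPM in WT and 4.48, 2.66, 2.63 and 2.44 CPM in Tbx20EH1Mut, 4.57-fold higher (log2 fold change 2.19 ± 0.57 SE, edgeR adjusted p = 0.0180). The call rested on 574 counts over all libraries and was lost without WT replicate 3 or WT replicate 4 (adjusted p up to 0.0576). The log2 fold change was 2.88 without WT replicate 2, the highest WT library, and between 1.86 and 2.29 without any other library. Col18a1, the source of the endostatin fragment and by far the more abundant of the pair, was at 241, 628, 388 and 397 CPM in WT and 384, 331, 168 and 245 CPM in the mutant (-0.55 ± 0.31 SE, adjusted p = 0.193). Its genotypes overlapped, and in the mutant it was higher in replicates 1 and 2 than in replicates 3 and 4.

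Type VIII collagen, a short-chain collagen that forms open networks around vessels, showed a rise of 1 chain. Col8a1 was at 6.62, 4.66, 4.5 and 5.43 CPM in WT and 22.9, 12.9, 30.4 and 26.8 CPM in Tbx20EH1Mut. All 4 mutant libraries were above all WT libraries, with Tbx20EH1Mut replicate 2 the lowest of them, and the difference was 4.39-fold (log2 fold change 2.13 ± 0.26 SE, edgeR adjusted p = 0.000511). Col8a2 was at 0.326 to 1.70 CPM in WT and 0.250 to 0.699 CPM in the mutant (-0.80 ± 0.58 SE, adjusted p = 0.315), and its 194 counts over all libraries leave that estimate wide.

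Of the beaded-filament type VI and the anchoring type VII collagens, 1 of 4 tested genes was called. Col6a3 was at 1.03, 0.896, 0.777 and 0.786 CPM in WT and 0.207, 0.398, 0.438 and 0.371 CPM in the mutant (log2 fold change -1.30 ± 0.36 SE, edgeR adjusted p = 0.0245). It held 204 counts over all libraries and lost its call (adjusted p up to 0.0629) without WT replicate 2, 3 or 4 or Tbx20EH1Mut replicate 1 or 4. The replicate block ended the call of Col6a3 as well. The more abundant Col6a1 (5.67 to 11.5 against 5.28 to 9.95 CPM), Col6a2 (15.5 to 25.6 against 16.2 to 20.2 CPM) and Col7a1 (7.34 to 13.7 against 10.3 to 15.1 CPM) had log2 fold changes of 0.0089, -0.13 and 0.19, and their genotypes overlapped.

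Transmembrane collagens are held in the plasma membrane by their amino end. Col13a1 (chr10:61838236-61979108), which is known from neuromuscular junctions and cell adhesions, was at 26.8, 26.2, 29.6 and 27.9 CPM in WT and 10.7, 12.3, 9.28 and 10.5 CPM in Tbx20EH1Mut. Replicates were close within each genotype (SD 1.51 and 1.25), and the fall was 2.58-fold (log2 fold change -1.37 ± 0.12 SE, edgeR adjusted p = 0.000107). WT replicate 2, which was highest for several other collagens, was here the lowest WT library. Col23a1, of the same class, rose from 19.7, 23.2, 21.7 and 20.7 CPM to 39.0, 40.4, 31.4 and 33.2 CPM (0.75 ± 0.12 SE, adjusted p = 0.00194). The class sum therefore overlapped between genotypes, at means of 9.86 ± 0.404 and 8.86 ± 1.11 CPM per kb (SD, n = 4), although both of its abundant members had changed. Col26a1, a short collagen outside these classes, was at 24.7, 23.7, 27.2 and 26.2 CPM in WT and 54.3, 44.1, 36 and 40.3 CPM in the mutant (0.78 ± 0.14 SE, adjusted p = 0.00312). The remaining transmembrane genes, Col17a1 and Col25a1, were not called.

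Partner chains were then set against each other within each library, as the log2 ratio of their levels per kb of exon, in 12 pairs. With 4 libraries against 4, an exact two-sided permutation test has 70 arrangements and cannot go below p = 0.0286, and after Benjamini-Hochberg adjustment over the 12 pairs no pair was below 0.0857, so none passed a threshold of 0.05. The 4 pairs at that smallest value were those whose genotypes did not overlap. Col9a2 over Col9a3 had log2 ratios of 0.74, 2.0, 1.05 and 1.25 in WT and 4.53, 4.28, 5.16 and 3.92 in the mutant, that is, mean ratios of 2.39 and 22.2. Col9a1 over Col9a3 had ratios of 1.26 and 3.18 (difference 1.34 on the log2 scale). Col8a1 over Col8a2 went from 7.19 to 46.4, with log2 ratios of 1.77 to 3.65 in WT and 4.57 to 6.74 in Tbx20EH1Mut. That ratio rested on the few counts of Col8a2, 27, 18, 8 and 14 in the mutant libraries. Col11a1 over Col2a1, whose products share the type XI trimer, had log2 ratios of -7.20 to -6.47 and -5.13 to -4.60. In each of these pairs every mutant library had the higher ratio.

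The other 8 pairs overlapped between genotypes. Col4a1 over Col4a2 was at 0.44 to 0.68 in WT and 0.53 to 0.78 in the mutant (log2 difference 0.11, exact permutation p = 0.200), although each chain on its own ranged more than 2-fold over the WT libraries. For Col4a5 over Col4a6 the difference was 0.19 (exact p = 0.486), for Col1a1 over Col1a2 it was -0.29 (exact p = 0.457) and for Col5a1 over Col5a2 -0.27 (exact p = 0.400). Col6a3 over Col6a1 differed by -1.36, with SDs of 0.53 and 0.81 (exact p = 0.0571), and rested on the few counts of Col6a3.

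**Figure D4:**
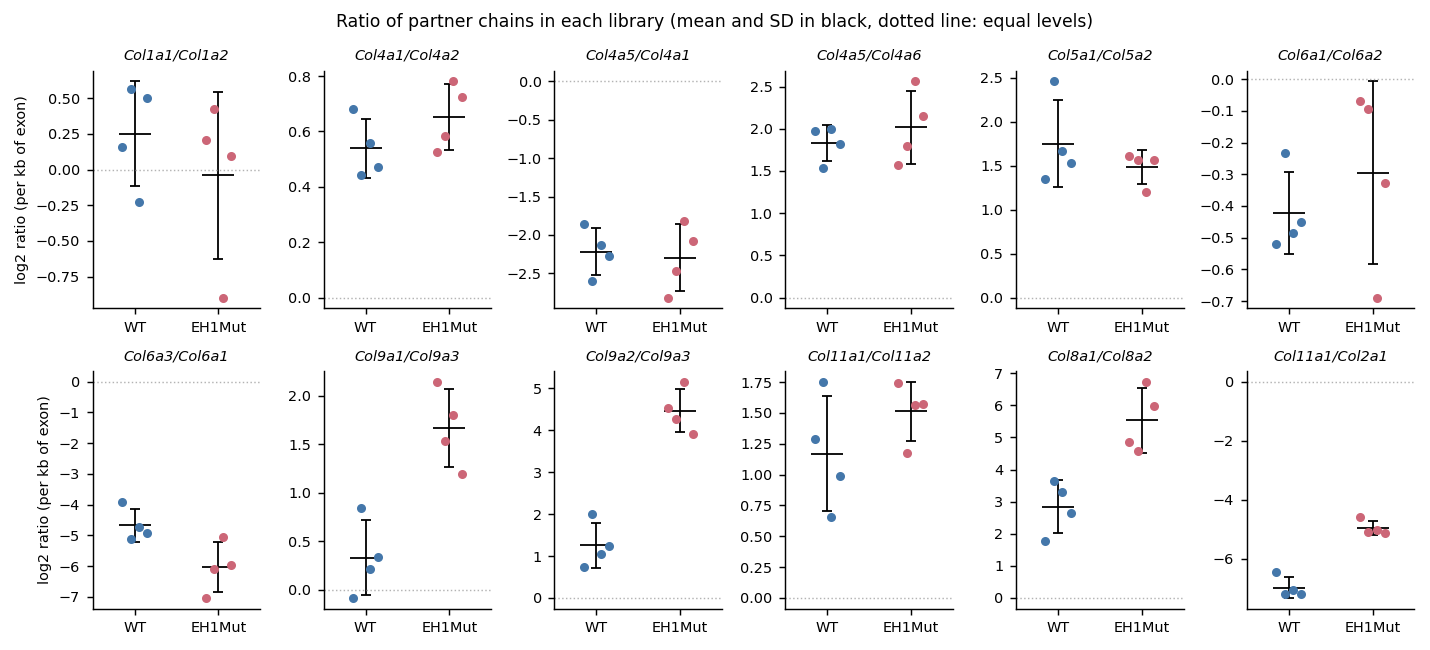
Log2 ratio of 12 pairs of partner chains in each library, per kb of exon, with WT in blue, Tbx20EH1Mut in red, the mean and SD of 4 libraries in black and a dotted line at equal levels where it falls in range. The genotypes do not overlap for Col9a1/Col9a3, Col9a2/Col9a3, Col8a1/Col8a2 and Col11a1/Col2a1, and Col4a1/Col4a2 stays between 0.44 and 0.78 in all libraries.

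Collagen chains are modified, folded, exported, trimmed and cross-linked by dedicated proteins, and 69 of 79 listed genes of these steps and of collagen partners were tested. Of these, 9 were higher and 14 lower, 33.3% in all beside 29.3% of all genes tested, with a median log2 fold change of -0.15. Proline and lysine modification had 3 of 15 genes higher and 2 lower. P4ha2 and P4ha1, catalytic subunits of prolyl 4-hydroxylase, which makes the helix stable at body temperature, were both higher. P4ha2 was at 38.0, 45.3, 41.6 and 42.1 CPM in WT and 172, 163, 136 and 143 CPM in Tbx20EH1Mut, and P4ha1 at 94.5, 110, 98.0 and 96.7 CPM and at 251, 240, 230 and 204 CPM. Their log2 fold changes were 1.88 ± 0.12 and 1.21 ± 0.11 (SE; edgeR adjusted p = 1.59e-05 and 0.000107). The third catalytic subunit, P4ha3, named after its values were seen, was at 1.06 to 2.25 CPM in WT and 0 to 0.717 CPM in the mutant and did not pass (-1.81 ± 0.69 SE, edgeR adjusted p = 0.0729). Without Tbx20EH1Mut replicate 3, which had no counts of it, P4ha3 was lower (-1.40, adjusted p = 0.0221), as it was by DESeq2 (adjusted p = 0.0145). Plod2, the lysyl hydroxylase that directs cross-links to collagen telopeptides, was at 83.6, 69.1, 63.3 and 76.8 CPM in WT and 203, 185, 185 and 179 CPM in the mutant (1.36 ± 0.12 SE, adjusted p = 8.13e-05). P4hb, the other subunit of prolyl 4-hydroxylase, was at 520 to 563 and 572 to 655 CPM and did not pass (0.17, adjusted p = 0.244). P3h2, a prolyl 3-hydroxylase of type IV collagen, went from 7.37, 53.4, 21.1 and 25.4 CPM to 8.78, 9.11, 2.47 and 5.70 CPM (-2.04 ± 0.55 SE, adjusted p = 0.0217). WT replicate 1 was below 2 of the mutant libraries for this gene, whose call was lost without WT replicate 2 (-1.45, adjusted p = 0.0557) or Tbx20EH1Mut replicate 4 (adjusted p = 0.0656). P3h1 was also lower (-0.48), with its call held only without WT replicate 1 or Tbx20EH1Mut replicate 1.

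Of the cross-linking enzymes, 3 of 6 tested were higher and 2 lower. Here and in the lists below, counts of called genes stand beside 29.3% of all genes tested. Loxl2, a lysyl oxidase that acts on type IV collagen, was at 143, 172, 114 and 118 CPM in WT and 332, 266, 324 and 289 CPM in the mutant (log2 fold change 1.15 ± 0.15 SE, edgeR adjusted p = 0.000825). Lox, the founding lysyl oxidase, was at 0.139 to 0.364 CPM in WT and 0.844 to 3.11 CPM in the mutant (3.06 ± 0.49 SE, adjusted p = 0.00205), and Loxl3 was higher by 0.60. Tgm2, a transglutaminase, fell from 118, 195, 153 and 169 CPM to 70.3, 97.5, 71.0 and 67.7 CPM (-1.05 ± 0.18 SE, adjusted p = 0.00256), and Loxl1 was lower (-0.57). Of the enzymes that remove procollagen ends, Adamts2 was higher (1.56) while Adamts3 (-2.28), Adamts14 (-0.77) and Pcolce (-0.66), an enhancer of that step, were lower. Several of these calls depended on single libraries. Pcolce passed only without Tbx20EH1Mut replicate 1 or 3 and Adamts14 only without WT replicate 1 or 3, Loxl3 was lost without WT replicate 3 or Tbx20EH1Mut replicate 1, 2 or 4, and Loxl1 without WT replicate 2 or 4 or Tbx20EH1Mut replicate 1, 3 or 4 (adjusted p up to 0.127 among these genes).

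**Figure D5:**
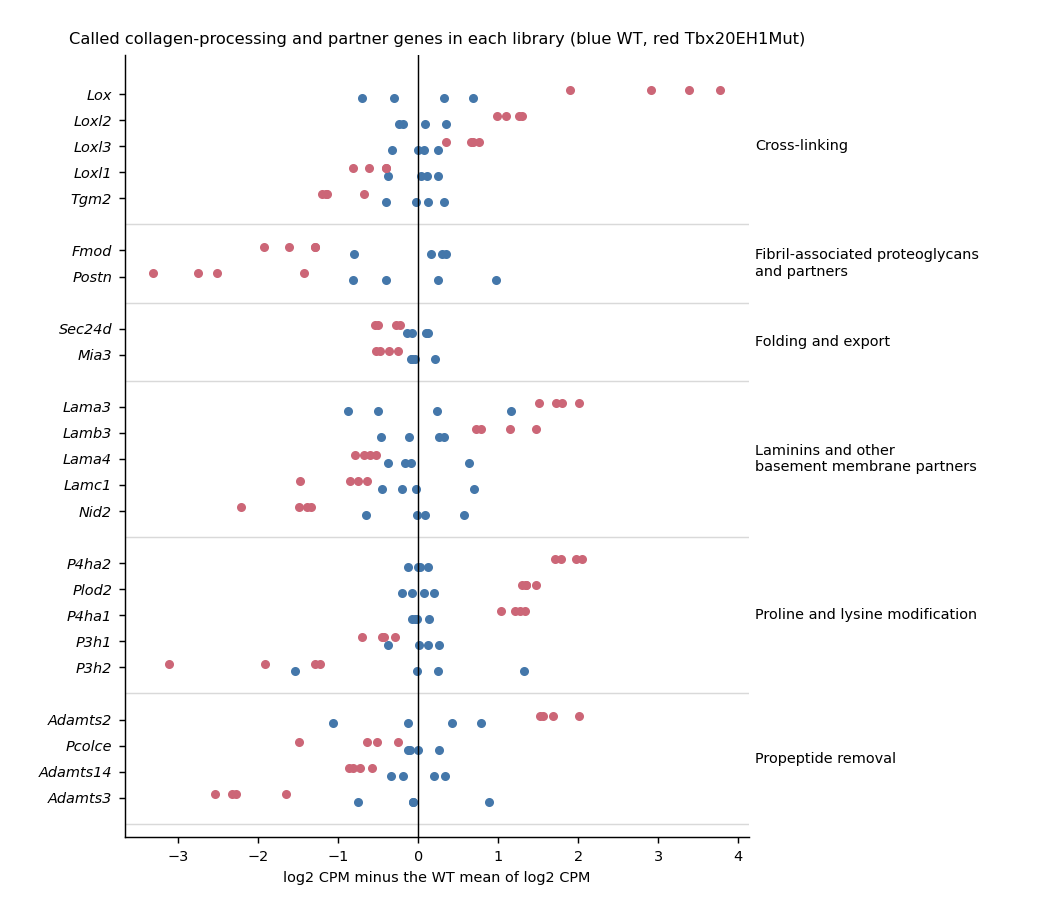
Level of the 23 called genes of collagen modification, export, trimming, cross-linking and matrix partners in each library, as log2 CPM minus the mean log2 CPM in WT, with WT in blue and Tbx20EH1Mut in red. P4ha2, Plod2, P4ha1, Loxl2 and Lox have all mutant libraries to the right of all WT libraries, and Nid2, Tgm2 and Postn have them to the left.

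Folding and export had 2 of 12 genes lower by edgeR and limma-voom and 3 by DESeq2, and none higher by any of these (none at an unadjusted p under 0.05). Mia3, the receptor that loads collagen into transport vesicles, was at 58.2 to 71.2 CPM in WT and 42.7 to 51.8 CPM in Tbx20EH1Mut (log2 fold change -0.41, edgeR adjusted p = 0.0210), and Sec24d, of the vesicle coat, fell by 0.39 on the log2 scale. Both calls were lost without Tbx20EH1Mut replicate 1 or 2, and that of Sec24d also without WT replicate 2 or 4 (adjusted p up to 0.0882). Serpinh1, the collagen chaperone, was by far the most abundant gene of the list at 1159 to 1328 and 1000 to 1098 CPM, and did not pass (-0.23, adjusted p = 0.121). Of 7 collagen receptors tested, edgeR called 0 (1 higher and 1 lower at an unadjusted p under 0.05), limma-voom 0 and DESeq2 2 lower. The most abundant were Itgb1, at 494 to 607 and 469 to 537 CPM, and Ddr1, at 171 to 263 and 119 to 191 CPM (-0.49, adjusted p = 0.0544).

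Among basement membrane partners, 3 of 14 tested genes were lower and 2 higher, beside 15.3% lower and 14.0% higher of all genes tested. Nid2, which joins laminin to type IV collagen, was at 149, 350, 232 and 249 CPM in WT and 89.6, 92.7, 50.3 and 83.1 CPM in the mutant (log2 fold change -1.63 ± 0.26 SE, edgeR adjusted p = 0.00223). Lamc1, the γ1 chain shared by most laminins, was at 130, 289, 155 and 175 CPM and at 114, 106, 64.0 and 98.8 CPM (-0.97 ± 0.26 SE, adjusted p = 0.0199, but 0.0539 without Tbx20EH1Mut replicate 4). Lama4 fell by 0.70 on the log2 scale and lost its call without Tbx20EH1Mut replicate 3 or 4 (adjusted p up to 0.0720). Lama3 and Lamb3, chains of the laminin of epithelia, were higher by 1.54 and 1.03 at levels of at most 6.29 CPM, beside the higher foregut epithelium markers given above, and the part of those cells in this difference was not tested. Both calls were lost without WT replicate 3, and that of Lama3 also without WT replicate 4 or Tbx20EH1Mut replicate 1 (adjusted p up to 0.0748). Hspg2, the perlecan core protein, was at 241 to 618 and 235 to 342 CPM and was not called (-0.40, adjusted p = 0.287, and -0.011 without WT replicate 2). Of 8 tested fibril partners, 2 were lower, Postn, the matricellular periostin (3.37 to 11.7 against 0.596 to 2.20 CPM, -2.49 ± 0.49 SE, adjusted p = 0.00521), and Fmod, a small proteoglycan on fibrils (-1.56). Fmod lost its call in 1 of 11 alternative fits with all libraries (adjusted p up to 0.256). Its log2 fold change in those fits was as small as -0.92. Fn1 was at 539, 1169, 507 and 629 CPM in WT and 536, 417, 353 and 427 CPM in the mutant (-0.71, adjusted p = 0.0628). Its WT replicate 2 was again far above the rest, and the log2 fold change was -0.83 without WT replicate 1 (adjusted p = 0.0350) and -0.35 without WT replicate 2 (adjusted p = 0.122). Sparc was at 509 to 717 and 601 to 869 CPM (0.25, adjusted p = 0.245).

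WT replicate 2 recurred as the highest WT library for the abundant matrix genes Col2a1, Col4a1, Col4a2, Col4a5, Col5a1, Col18a1, Fn1, Hspg2, Lamc1 and Nid2. Without it, 8 collagen genes were called higher and 6 lower, and with a log2 fold change of at least 1 in size 5 were higher and 1 lower. That fit called 4245 of all 17593 genes it tested. Col6a3 then lost its call and Col12a1 gained one.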

How the data were processed

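RNA was isolated from pooled E9.5 hearts, 3 per library, and poly-A selected libraries were sequenced in 150-base read pairs. Per the submitters' processing notes, reads were trimmed with Trimmomatic 0.36 and aligned with STAR 2.5.2b to GRCm38 (mm10). The authors deposited raw read counts per gene for each library, and the counting tool, its annotation release and its strand setting are not given in the sources used here. Gene lengths and exons were those given with the deposited counts, and gene names were matched by Ensembl identifier. GENCODE M21, which gave the GC content of transcripts, had the same gene start and end for 91.4% of the genes.

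Counts were tested with edgeR 4.0.16 in R 4.3.3 (filterByExpr, TMM scaling, quasi-likelihood test of genotype, Benjamini-Hochberg adjustment over 17163 genes, threshold 0.05), after the procedure was tested on simulated data. There, 190 of 16820 genes were changed. The test called 48.5% of those changed by 1 on the log2 scale and 80.6% of those changed by 2, and 3.94% of its calls were false. A gene that was not called may therefore still differ. Levels are TMM-scaled counts per 1000000 (CPM), computed here. Errors are SD over 4 libraries or the SE of a log2 fold change. Exact intervals for counting error were not added, since the libraries hold at least 33359322 counts and the spread between libraries is wider. Libraries of 1 genotype differed by more than sampling noise. P-values measure the spread between pools of embryos. Partner chains were compared with exact permutation tests.

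Collagen genes were named with values in each library when they reached a mean of 50 CPM in a genotype, or were called with a log2 fold change of at least 1 in size, and other called ones were added. From each related list up to 4 called genes with the largest change and any at 200 CPM or more were named, together with a few further called genes. The members and lists were chosen with earlier results of these data known, and genes marking other tissues were counted from lists of the same kind. Alternatives were RLE, upper-quartile and library-size scaling, DESeq2 1.42.0, limma-voom (limma 3.58.1), 2 other filters, a replicate block, offsets for gene length and GC content, a foregut marker covariate and leaving out each library. The GC offset and the covariate were chosen after seeing the data. Protein sequences were not analysed here.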

Additional observations from a re-analysis of the deposited data

Results flagged for a closer look

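Of 114 groups of 4 libraries examined for a value far from its group (collagen genes, class sums and chain ratios), 8 had 1 library whose gap to the next was past Dixon's critical share of the group's range, and chance alone marks about 1 in 20. In WT, the highest Col11a1 library was at 15.2 CPM with the next at 9.80, and the highest Col12a1 library at 43.9 CPM with the next at 22.3, in both cases replicate 2. The lowest Col3a1 library in WT, replicate 3, was at 88.2 CPM with the next at 116. In Tbx20EH1Mut, the highest Col15a1 library, replicate 1, was at 4.48 CPM with the next at 2.66. Replicate 3 was the lowest mutant library for Col4a6 (11.9 CPM, next 16.6), for Col6a2 (16.2 CPM, next 19.8), for the summed level of collagens VI and VII (4.18 CPM per kb, next 5.83) and for the log2 ratio of Col5a1 over Col5a2 (1.20, next 1.56).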

How the results depend on the processing

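Under RLE, upper-quartile and library-size scaling, DESeq2, limma-voom and the offsets for gene length and GC content, all 14 collagen calls were kept, and 0 or 1 was added (Col9a1). Upper-quartile scaling moved the median of all genes from 0.0048 to 0.089. Col6a3 was lost without the filter, and Col6a3 and Col15a1 were not among the 29 collagens with at least 10 counts in every library. Replicate numbers did not pair the libraries (correlations of same-numbered libraries -0.27, 0.34, 0.060 and 0.060), and no WT library correlated best with the mutant library of its number. A replicate block gave 8 collagen genes higher and 6 lower, and 3945 calls over all genes instead of 5024. The block ended the call of Col6a3 and added Col9a1. With the foregut covariate, 12 collagen genes were lower, 7 of them by a log2 fold change of at least 1. Calls over all genes then rose to 6456.

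Leaving out 1 library at a time gave 5 to 9 collagen genes higher and 5 to 9 lower, and 3 to 5 and 1 to 4 with a log2 fold change of at least 1. Calls over all genes ran from 3001 of 17613 tested (without WT replicate 4) to 6586 of 17661 (without WT replicate 1). In the same fits, lower calls ran from 0 to 2 for proline and lysine modification, 0 to 3 for folding and export, 1 to 2 for propeptide removal, 1 to 2 for cross-linking, 0 to 2 for receptors and 1 to 3 for laminins and partners, and higher calls from 0 to 1 for receptors and 0 to 3 for laminins and partners. Log2 fold changes ran from -0.33 to 0.13 for Col5a1, -0.20 to 0.49 for Col24a1, -0.056 to 0.36 for Col16a1, -0.14 to 0.22 for Col6a1 and -0.19 to 0.24 for Col1a1, the difference in Col4a5 over Col4a1 from -0.24 to 0.095, and the log2 ratio of collagens VI and VII from -0.16 to 0.11.

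Lower calls for modification fell to 1 with upper-quartile scaling and 1 with the block, and rose to 4 with the covariate. Folding and export had 1 lower call with upper-quartile scaling and 0 with the block, and cross-linking 1 lower call with upper-quartile scaling. Receptors had 1 higher call with upper-quartile scaling, the length offset or the GC offset, 2 lower with DESeq2, and 1 lower without the filter, with the GC offset or with the covariate. The covariate also gave 0 higher calls for propeptide removal, 1 for cross-linking, and 0 higher and 9 lower for laminins and partners. Collagens VI and VII together turned to 0.066 with upper-quartile scaling.

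Signs that turned belonged to genes not called in the edgeR fit with all libraries. With the covariate the log2 fold changes were -0.073 (Col20a1), -1.32 (Col24a1), -0.33 (Col16a1), -0.77 (Col6a1), -0.19 (Col12a1), -0.13 (Col7a1), -0.79 (Col1a1) and -0.996 (Col17a1). Col24a1 was at -0.36 with limma-voom and -0.13 with the block, Col6a2 at 0.0022 with the length offset, and Col6a1 at -0.043 with library-size scaling, -0.0026 with DESeq2 and -0.0044 without the filter. The cause was not tested. Depth limits the 8 collagens that were not tested and those with a mean under 1 CPM in both genotypes, among them Col6a3 and Col8a2.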
